A study of Rattus norvegicus with 20 samples.

Results

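The 20 RNA-seq libraries of this series were ordered by their level of Mbp, the gene of myelin basic protein, and split into 2 classes of 10 libraries. Each library was made from nucleus accumbens, the part of the ventral striatum that handles reward. The donors were wild-type Sprague-Dawley rats, all male and aged 7 to 9 weeks, that were housed 2 to a cage and self-administered cocaine. The high class holds the 10 libraries with the most Mbp, measured as CPM, the count of a gene per 1000000 counts of the library, and the low class holds the other 10. The rats drank one of 4 solutions. Abx rats (n = 4) drank antibiotics, given to reduce gut bacteria. SCFA rats (n = 6) drank short-chain fatty acids, products that gut bacteria make from fibre. Abx_SCFA rats (n = 5) drank both, and H2O rats (n = 5) drank plain water as the control. Every group of rats took cocaine, so that no library comes from a rat without the drug. The classes were chosen by a measured level and not by the study's design, and Mbp itself was therefore given no test.

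Myelin is the multilayered membrane that oligodendrocytes wrap around axons. White matter, where bundles of myelinated axons run, holds many oligodendrocytes and few nerve cell bodies, while grey matter such as the accumbens core and shell holds the cell bodies and synapses and a sparser set of myelinated fibres. The nucleus accumbens borders the anterior commissure, a white matter tract, and myelin gene levels in a tissue sample of this region can differ with the amount of white matter it holds as well as with the state of its oligodendrocytes. In tissue RNA, fewer cells of a type and less RNA per cell cannot be told apart, and this holds for each cell type described here.

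Mbp ran from 6519 to 11383 CPM with a median of 8707 CPM in the high libraries, against 2869 to 6515 CPM with a median of 5905 CPM in the low libraries. The gap at the boundary was small, with 6519 CPM in SCFA 4 just inside the high class and 6515 CPM in Abx_SCFA 4 just outside it, a difference of 4.75 CPM. At the ends, SCFA 1 had 11383 CPM and H2O 5 had 10569 CPM, whereas Abx 3 had 2882 CPM and SCFA 5 had 2869 CPM. The highest library thus held 3.97 times the Mbp of the lowest, and Mbp alone took from 0.287% to 1.14% of a library's counts. These values made the classes and are given as a description.

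**Figure D1:**
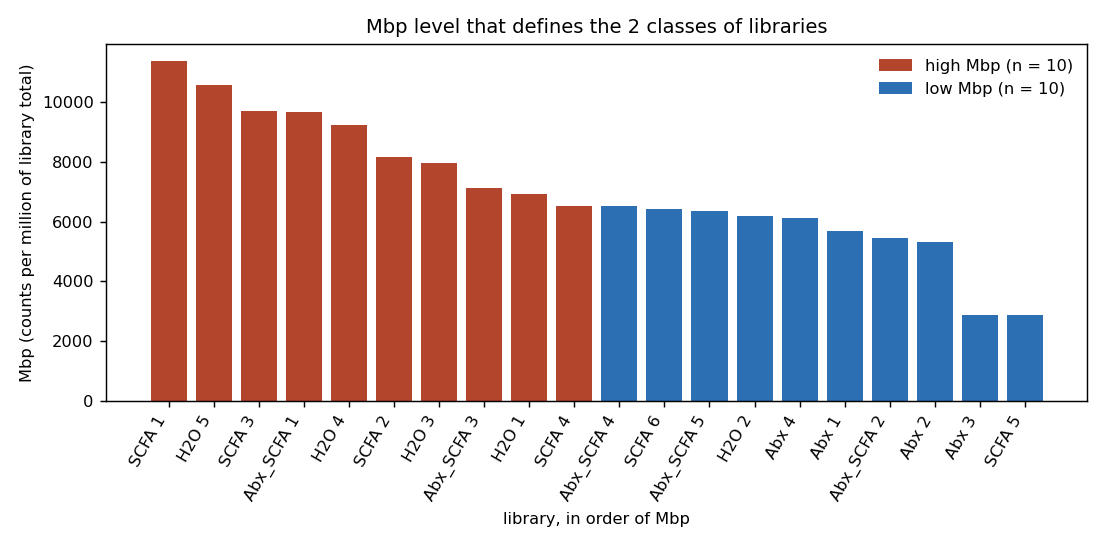
Mbp level, in CPM, for each of the 20 libraries in order from highest to lowest, with the 10 high Mbp libraries on the left and the 10 low Mbp libraries on the right. The bars fall gradually through the middle of the order, where SCFA 4 and Abx_SCFA 4 differ by 4.75 CPM, and are lowest for Abx 3 with 2882 CPM and SCFA 5 with 2869 CPM.

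The classes are not spread evenly over the drinking groups. The high class holds 0 Abx, 4 SCFA, 2 Abx_SCFA and 4 H2O libraries, and the low class holds 4 Abx, 2 SCFA, 3 Abx_SCFA and 1 H2O libraries. Antibiotic libraries therefore give no contrast of their own, and the contrast within water rests on a single low library, H2O 2. For this reason both the fit on the classes and the fit on the level of Mbp held the drinking group as a covariate. The fitted fold changes and slopes are thus differences at equal treatment. Ranges, medians and overlaps of the classes are plain levels without that covariate, and the low side of each includes all 4 Abx libraries. Without the covariate, the fit on the classes called 499 genes, against 1 with it. Total counts ran from 18223766 to 23545994 in the high libraries and from 17525358 to 25731636 in the low libraries.

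Some libraries stood apart. SCFA 2, a high library, had 700 CPM of Slc17a7, which loads glutamate into vesicles of cortical neurons, and SCFA 5, the low library with the least Mbp, had 1045 CPM, against 3.07 to 505 CPM in the other libraries. Both also had the lowest summed level of medium spiny neuron genes, 7239 CPM in SCFA 2 and 7221 CPM in SCFA 5, against 11133 to 15879 CPM elsewhere. Cend1, a neuronal gene, had 4 to 14 counts in the SCFA libraries and 88 to 240 in the others, except that H2O 4 had 7 counts and Abx_SCFA 5 had 8, so that these libraries resembled SCFA libraries in this gene. Whether these libraries carry the right treatment label was not tested. All SCFA and Abx_SCFA rats have rat numbers in the 4-hundreds and the other rats in the 2-hundreds and 3-hundreds, so that number series and fatty acids cannot be told apart. Drd1, the D1 dopamine receptor of medium spiny neurons, was present at 168 CPM or more in every library.

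The promoters of 3 oligodendrocyte genes are shown first, because these genes followed Mbp closely and a binding core of SOX factors, the family of the oligodendrocyte regulator Sox10, could be searched in them. Shown are the 250 bases before the gene's start for the 3 genes of the oligodendrocyte lists with the smallest p for their relation to Mbp that had an entry in the RefSeq table of rat promoters (GRCr8). Capitals mark ACAAAG or ACAATG, or either motif read on the other strand, and a window in lower case throughout holds none. The genes are Mobp, a small basic myelin protein (chr8:128746982-128747231, plus strand), Tf, the iron carrier transferrin (chr8:112695377-112695626, minus strand), and Cnp, the cyclic nucleotide phosphodiesterase of myelin (chr10:86011254-86011503, plus strand).
Mobp: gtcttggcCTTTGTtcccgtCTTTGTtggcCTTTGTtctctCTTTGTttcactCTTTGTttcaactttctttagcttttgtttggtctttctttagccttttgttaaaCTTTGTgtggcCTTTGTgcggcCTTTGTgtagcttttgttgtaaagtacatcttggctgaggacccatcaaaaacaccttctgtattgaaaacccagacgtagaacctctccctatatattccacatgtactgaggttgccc
Tf: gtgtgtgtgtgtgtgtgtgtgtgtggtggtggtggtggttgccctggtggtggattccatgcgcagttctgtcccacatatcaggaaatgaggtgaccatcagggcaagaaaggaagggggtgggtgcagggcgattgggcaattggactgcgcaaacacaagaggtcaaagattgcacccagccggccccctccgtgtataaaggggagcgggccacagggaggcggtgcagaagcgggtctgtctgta
Cnp: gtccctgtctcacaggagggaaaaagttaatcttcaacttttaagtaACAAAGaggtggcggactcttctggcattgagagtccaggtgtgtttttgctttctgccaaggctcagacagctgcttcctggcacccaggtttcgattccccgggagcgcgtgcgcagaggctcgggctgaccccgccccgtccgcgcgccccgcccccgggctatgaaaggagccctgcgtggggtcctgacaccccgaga
The Mobp window held 8 matches, the Cnp window 1 and the Tf window 0. Of 33469 promoters in the table, 25.3% held at least 1 match and 2 promoters, or 0.00598%, held at least 8. Of the 61 tested members of the oligodendrocyte lists, 45 had a promoter in the table, and 12 of these, or 26.7%, held a match. The share among these genes is thus near that of all promoters, and a match describes letters only.

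The first comparison asked which genes differed between high and low Mbp libraries at equal treatment. All 19 sheath genes and all 14 lineage regulators tested had a higher fitted level in the high libraries, but a single gene of all 12845 tested passed the adjusted p threshold of 0.05, and it belongs to neither list. The call was lost when any of 17 of the 20 libraries was left out (edgeR quasi-likelihood test, Benjamini-Hochberg adjusted p).

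Genes called higher made up 0.00779% of those tested and genes called lower 0%. At an unadjusted p below 0.05, 1250 genes were higher and 1120 lower, and DESeq2 called 516 genes on the same libraries, 215 of them lower. In plain levels, not adjusted for drinking group, the ranges of the classes did not overlap for 9 genes, or 0.0701% of those tested. All of them were higher in the high libraries. These were Bcas1 and Hapln2 of the myelin list, Olig1, and Foxo4, Frmd8, Jakmip3, Josd2, Kif5b and Snapc2, which were named after their values were seen.

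Because the boundary falls between libraries of nearly equal Mbp, a second fit used the log2 level of Mbp itself in place of the classes, again at equal treatment. It was given this place after its count of calls was seen. The value for a gene is a slope, the log2 change of its level per doubling of Mbp, and a slope of 1 means that the gene moved by the same fold as Mbp. In all, 1403 genes passed, with 652 called when SCFA 5 was left out and 851 without SCFA 1. Of the 12845 genes, 847 had a positive slope that passed (6.59%) and 556 a negative one (4.33%), with a median slope of all genes of 0.00. The called slopes of at least 0.8 numbered 79, or 0.615% of all genes. Of these steep genes, 30 belong to the oligodendrocyte lists, which is 38.0% of the steep genes and 49.2% of the 61 list members.

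**Figure D2:**
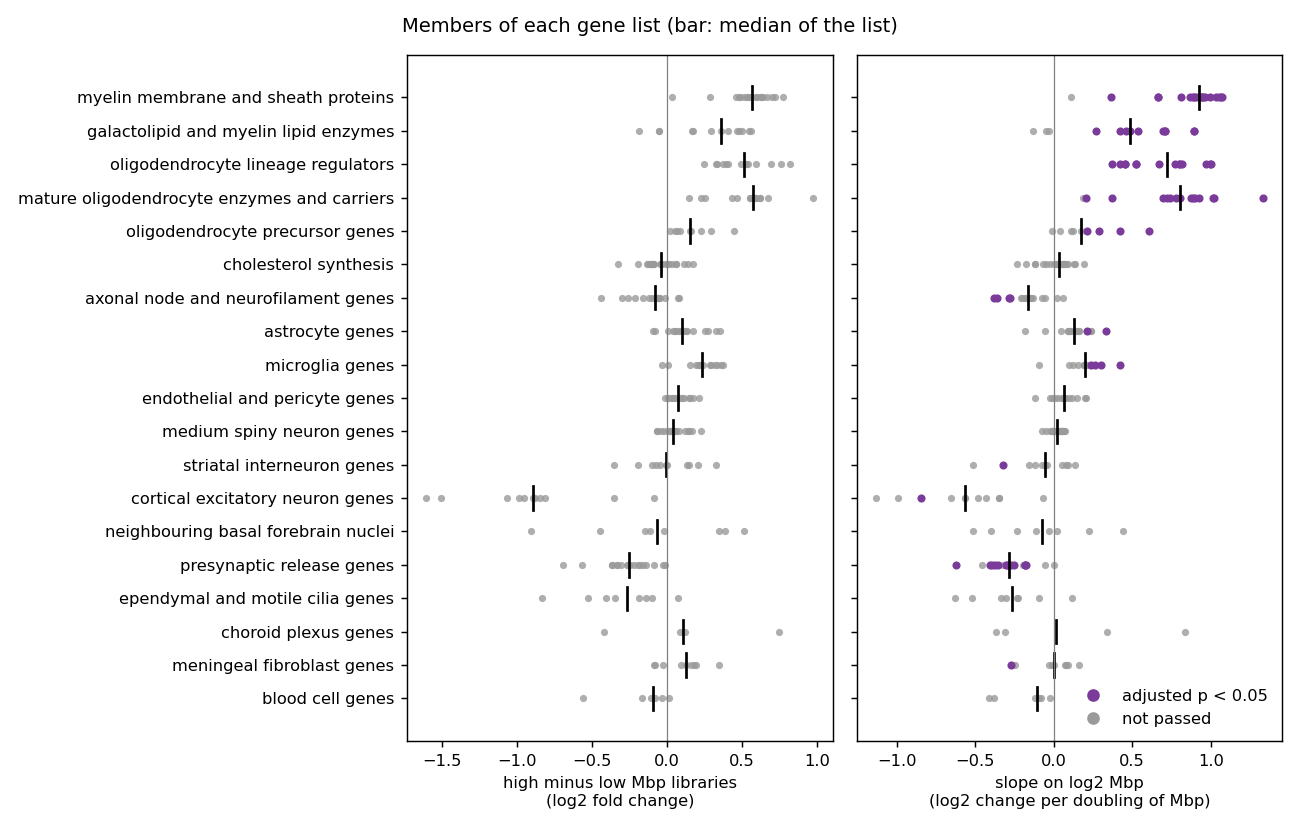
Values of the tested members of 19 gene lists, as the log2 fold change of high minus low Mbp libraries on the left and as the slope per doubling of Mbp on the right, with each gene a dot, the list's median a black bar and genes with an adjusted p below 0.05 in purple. The 4 lists at the top, for myelin proteins, myelin lipid enzymes, lineage regulators and mature oligodendrocyte enzymes, lie to the right in both panels, with median slopes of 0.92, 0.49, 0.72 and 0.80, and the presynaptic list lies to the left with a median slope of -0.29.

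Structural proteins of the sheath made up the list closest to Mbp. In the high libraries the 19 tested genes summed to between 9453 and 16233 CPM with a median of 13767 CPM, against 4591 to 10573 CPM with a median of 8945 CPM in the low libraries. H2O 1 and Abx_SCFA 3 were the high libraries within the range of the low class. All 19 fold changes were positive with a median of 0.57, against -0.001 over all genes, and 0 passed between the classes. In the fit on the Mbp level 18 of 19 passed with a positive slope, where 6.59% of all genes did, and the median slope was 0.92.

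Mag, the myelin-associated glycoprotein of the layer that faces the axon, ran from 401.5 to 817 CPM with a median of 649 in the high libraries, against 171 to 513 CPM with a median of 371 in the low libraries. The classes overlapped, with 7 high libraries above every low one. Its fold change was 0.78 ± 0.22 on the log2 scale (edgeR adjusted p = 0.121) and its slope 1.07 ± 0.08 (adjusted p = 8.36e-09). Here and below, the value after ± is a standard error of the estimate, derived from the F statistic of the test, and not a spread between libraries.

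Mobp had the smallest p of all genes in the fit on Mbp (slope 0.95 ± 0.04, edgeR adjusted p = 1.14e-11). It ran from 1023 to 1735 CPM with a median of 1392 in the high libraries, against 474 to 1045 CPM with a median of 948 in the low libraries. Of the high libraries, 9 stood above all low ones. Bcas1, which marks oligodendrocytes that are forming myelin, and Hapln2, a link protein of the matrix around nodes of Ranvier, separated the classes fully. Bcas1 ran from 487 to 812 CPM with a median of 620 in the high libraries, against 210 to 466 CPM with a median of 441 in the low ones. Hapln2 ran from 147 to 280 CPM with a median of 185 in the high libraries, against 73.7 to 145 CPM with a median of 124 in the low ones. Their fold changes of 0.60 ± 0.19 and 0.70 ± 0.17 did not pass (edgeR adjusted p = 0.138 and 0.121).

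The steepest slopes of the list were those of Mag, Opalin (1.06), a membrane glycoprotein of oligodendrocytes, Cldn11 (1.05), the claudin of myelin tight junctions, and Mal (1.03), a raft proteolipid. Mog, a glycoprotein of the outermost myelin surface, had a slope of 0.90 and Cnp of 0.91. The shallowest called slope was that of Nfasc (0.36 ± 0.05, edgeR adjusted p = 3.65e-05), the cell adhesion molecule neurofascin, which both glia and neurons make. The member without a call was Omg, a glycoprotein named for oligodendrocytes that neurons make as well. Omg ran from 135 to 185 CPM with a median of 162 in the high libraries, against 133 to 170 CPM with a median of 153 in the low libraries, with a slope of 0.11 ± 0.05 (adjusted p = 0.216).

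**Figure D3:**
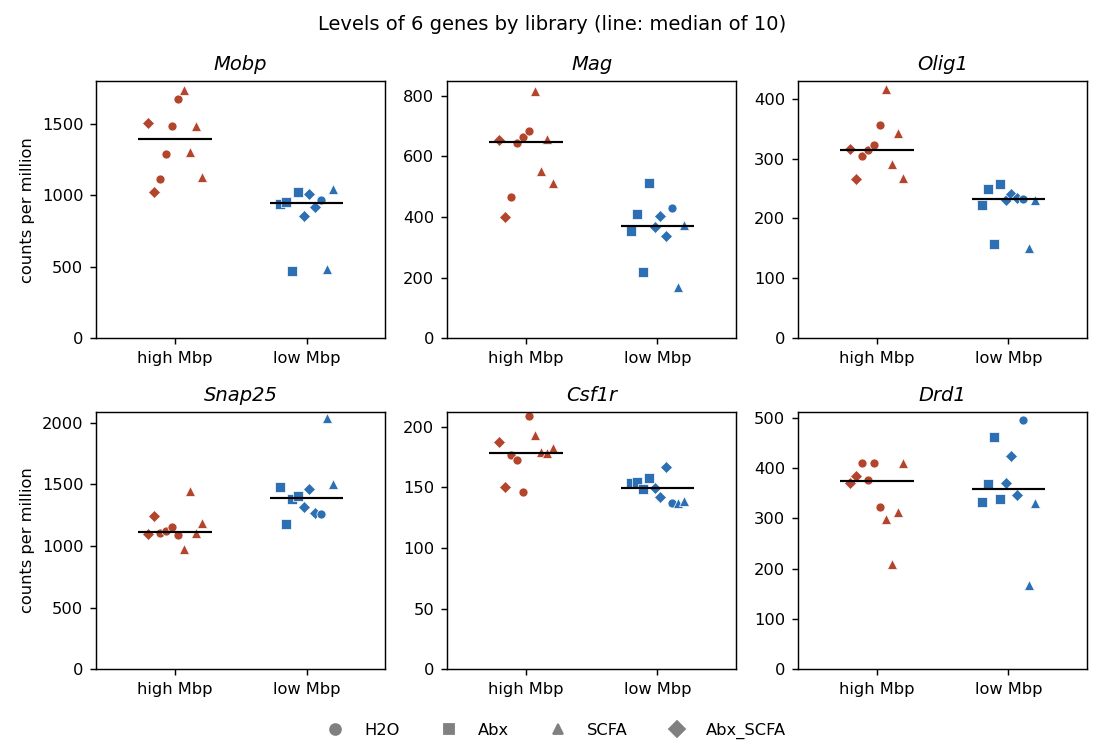
Level of 6 genes in CPM, for each of the 10 high Mbp libraries on the left of a panel and the 10 low Mbp libraries on the right, with the drinking group as the symbol and the class median as a line. Mobp and Mag overlap between the classes, with 9 and 7 high libraries above every low one, Olig1 does not overlap, Snap25 has a median of 1114 CPM in the high and 1391 CPM in the low libraries, and the 2 classes of Drd1 lie over each other.

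Enzymes of myelin lipids followed Mbp less steeply as a list. Of the 13 tested, 10 had a positive slope that passed and 3 did not pass, where 6.59% of all genes were called positive. The median slope was 0.49 and the median log2 fold change between classes was 0.36. Ugt8, which adds galactose to ceramide, ran from 149 to 266 CPM with a median of 225 in the high libraries, against 76.2 to 186 CPM with a median of 151 in the low libraries, and its slope was 0.89 ± 0.07 (edgeR adjusted p = 1.29e-08). The hydroxylase of myelin sphingolipids, Fa2h, had the same slope to 2 decimals, and Gal3st1, which makes sulfatide, had 0.71 ± 0.08. The long-chain elongase Elovl1 and the ceramide synthase Cers2 were shallower, with slopes of 0.46 ± 0.06 and 0.54 ± 0.05. The stearoyl-CoA desaturase Scd2 had the shallowest called slope of the list (0.27 ± 0.06, adjusted p = 0.00986). The genes without a call were the ceramide kinase Cerk (-0.13 ± 0.08) and the desaturases Fads1 (-0.05 ± 0.06) and Fads2 (-0.03 ± 0.09).

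Cholesterol is a large part of myelin lipid, and its synthesis genes were counted separately. None of the 22 tested passed in either fit, with 8 positive and 14 negative fold changes, a median fold change of -0.04 and a median slope of 0.03. Their summed level ran from 1350 to 2145 CPM with a median of 1562 CPM in the high libraries, against 1349 to 2141 CPM with a median of 1596 CPM in the low libraries. The ranges of the classes overlapped almost wholly. The list was also fitted in subsets of rats. In the rats that drank fatty acids the median slope was -0.07 and 1 gene passed with a negative slope, where 5.86% of all genes were called positive and 6.76% negative. In the rats without fatty acids the median slope was 0.33 and 0 passed, where 1.87% of 12598 genes were called positive and 0.476% negative. Whether the slopes differ between these subsets was not tested. Within groups, the high libraries had the higher mean in 4 of 22 genes in SCFA, 13 of 22 in Abx_SCFA and 20 of 22 in H2O. The count in H2O rests on the single low library, H2O 2. With 1 library left out the median slope ran from -0.02 without Abx 3 to 0.21 without SCFA 5, where 1 gene passed.

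Regulators of the oligodendrocyte lineage followed Mbp as a list too. All 14 had a positive fold change, with a median of 0.51, and all 14 had a positive slope that passed, with a median of 0.72. The share of all genes with such a slope was 6.59%. Olig1, a basic helix-loop-helix factor of the lineage, separated the classes fully, with 265 to 415.99 CPM and a median of 315 in the high libraries, against 151 to 257 CPM and a median of 232 in the low libraries. Its log2 fold change was 0.53 ± 0.13 (edgeR adjusted p = 0.121) and its slope 0.67 ± 0.05. Sox10 ran from 107 to 183 CPM with a median of 138 in the high libraries, against 57.3 to 124 CPM with a median of 98.5 in the low libraries, and had a slope of 0.80 ± 0.05. Myrf, which switches on myelin genes in maturing cells, had 0.77 ± 0.07, and Olig2 had 0.53 ± 0.07. Nkx6-2, a homeobox factor of myelinating cells, was among the steepest with 0.99 ± 0.11. Enpp6 and Gpr17, which mark cells between precursor and mature oligodendrocyte, had slopes of 0.999 ± 0.197 and 0.45 ± 0.08.

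Enzymes, carriers and other proteins of mature oligodendrocytes were counted as a further list. All 15 fold changes were positive with a median of 0.58. Of the slopes, 14 passed, all positive, where 6.59% of all genes were called positive, and the list median was 0.80. Slc45a3, a sugar transporter, had the steepest slope of all list members (1.33 ± 0.11, edgeR adjusted p = 3.32e-08), with 4.46 to 8.77 CPM and a median of 6.76 in the high libraries, against 1.29 to 5.87 CPM and a median of 3.72 in the low libraries. Tf ran from 870 to 1748 CPM with a median of 1361 in the high libraries, against 395 to 1044 CPM with a median of 816 in the low libraries, and had a slope of 1.02 ± 0.07. The proteinase Klk6 and the carbonic anhydrase Car2 had slopes of 1.02 ± 0.08 and 0.74 ± 0.06. Il33, an alarmin cytokine held in the nucleus of oligodendrocytes and astrocytes, had a low slope that passed (0.20 ± 0.06, adjusted p = 0.0284), and the kinesin Kif19 did not pass (0.19 ± 0.11).

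Genes of oligodendrocyte precursors moved less. All 9 fold changes were positive with a median of 0.15. Of the slopes, 4 passed, all positive, where 6.59% of all genes were called positive, and the list median was 0.17. Pdgfra, the growth factor receptor that marks these cells, ran from 131 to 168 CPM with a median of 149 in the high libraries, against 123 to 147 CPM with a median of 133 in the low libraries. The classes overlapped, with 5 high libraries above every low one, and the slope was 0.21 ± 0.04 (edgeR adjusted p = 0.00250). The matrix gene Matn4, the complement-like secreted protein C1ql1 and the proteoglycan Vcan passed too, with slopes of 0.61, 0.42 and 0.29. Cspg4, the proteoglycan that defines the precursors in tissue stains, did not pass (0.17 ± 0.06, adjusted p = 0.0817).

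Beyond the lists, 45 steep genes had a mean of at least 1 CPM, and the following were named after their values were seen. S1pr5, a sphingosine phosphate receptor found on oligodendrocytes, ran from 73.1 to 130 CPM with a median of 101 in the high libraries, against 29.2 to 80.3 CPM with a median of 63.3 in the low libraries. Its slope was 1.01 ± 0.06 (edgeR adjusted p = 1.52e-09). Galnt6, which starts O-linked glycan chains, had 1.08 ± 0.07, Lpar1, a lysophosphatidic acid receptor, 0.98 ± 0.06, and Erbb3, a neuregulin receptor, 0.88 ± 0.07. The lipid transporter Abca8a had 0.84 ± 0.08 and the serine incorporator Serinc5 had 0.86 ± 0.07. Each of these genes had its lowest value in a low Mbp library.

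Genes of the presynaptic release machinery ran the other way. All 18 tested had negative fold changes between the classes with a median of -0.26, and 12 of 18 had a negative slope that passed, with a median slope of -0.29. Snap25, a membrane fusion protein of synaptic vesicle release, ran from 973 to 1445 CPM with a median of 1114 in the high libraries, against 1175 to 2034 CPM with a median of 1391 in the low libraries. SCFA 1 was the lowest of all libraries and SCFA 5 the highest, and the classes overlapped. The slope of Snap25 was -0.37 ± 0.08 (edgeR adjusted p = 0.00306). The vesicle protein Syn2 had -0.40 ± 0.07, and the calcium sensor Syt1 had -0.36 ± 0.10. The glycoprotein Sv2b was the steepest at -0.62 ± 0.19 (adjusted p = 0.0448), while the complexin Cplx2 (-0.05 ± 0.08) and the active zone gene Rims1 (0.00 ± 0.23) did not pass. These calls rested on the library with the least Mbp, since without SCFA 5 none of the 18 passed and the median slope was -0.14. When SCFA 1 was left out, 4 of 18 passed. Negative calls fell over all genes too, from 556 of 12845 with all 20 libraries to 115 of 12821 without SCFA 5. They numbered 232 of 12832 without SCFA 1. In the rats that drank fatty acids 13 of 18 passed with a median slope of -0.37, where 6.76% of all genes were called negative. In the rats without fatty acids 0 of 18 passed with a median of -0.06, where 0.476% of all genes were called negative. The difference between these slopes was not tested.

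Axonal genes leaned the same way, with 14 of 16 fold changes between the classes negative and a median of -0.08. Of 16 genes of nodes of Ranvier and neurofilaments, 4 had a negative slope that passed and 0 a positive one, with a median of -0.17. These were the intermediate filament genes Ina (-0.36) and Nefl (-0.28), the nodal sodium channel Scn8a (-0.28) and the juxtaparanodal potassium channel Kcna2 (-0.38). Nefh, the heavy neurofilament of large myelinated axons, ran from 44.8 to 77.0 CPM with a median of 58.8 in the high libraries, against 53.0 to 85.9 CPM with a median of 60.2 in the low libraries. It did not pass (slope -0.21 ± 0.09, edgeR adjusted p = 0.148). Without SCFA 5 none of the 16 passed, and without SCFA 1 or SCFA 3 there were 1 and 2. Negative calls over all genes numbered 556 (4.33%) with all 20 libraries and 115 without SCFA 5. They numbered 232 without SCFA 1 and 364 without SCFA 3.

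Genes of medium spiny neurons, the projection neurons of this region, gave no call. None of their 20 genes passed in either fit, and the median slope was 0.02. Drd1 ran from 209.3 to 411 CPM with a median of 374 in the high libraries, against 168 to 496 CPM with a median of 358 in the low libraries, and its slope was 0.02 ± 0.16. Ppp1r1b, the phosphoprotein that integrates dopamine and glutamate signals, ran from 994 to 2123 CPM with a median of 1782 in the high libraries, against 947 to 2215 CPM with a median of 1809 in the low libraries. The classes overlapped for both genes, and the lowest value of each class came from SCFA 2 and SCFA 5. In the rats that drank fatty acids 0 of 20 passed, with a median slope of 0.26, where 5.86% of all genes were called positive and 6.76% negative. In the rats without fatty acids, 9 of 20 had a negative slope that passed and the median was -0.47, where 60 of 12598 genes were called negative (0.476%) and 236 positive (1.87%). The difference between these slopes was not tested. With 1 library left out, the median slope over all rats ran from -0.32 without SCFA 5 to 0.14 without Abx 3, and it was -0.27 without both, with 0 of 20 passing each time.

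Cortical excitatory neurons do not belong to the accumbens, and their genes varied most. All 11 tested had negative fold changes with a median of -0.89, and their summed level ran from 45.9 to 1039 CPM with a median of 196 in the high libraries, against 83.2 to 1609 CPM with a median of 440 in the low libraries. Slc17a7 ran from 3.07 to 700 CPM with a median of 107 in the high libraries, against 31.8 to 1045 CPM with a median of 274 in the low libraries, with a fold change of -0.85 ± 0.91 on the log2 scale (edgeR adjusted p = 0.642). A single gene passed in the fit on Mbp, where 4.33% of all genes were called negative. This was Fezf2, a factor of deep cortical layers (slope -0.84 ± 0.24, edgeR adjusted p = 0.0276), a call lost without SCFA 1, SCFA 3 or SCFA 5. Without SCFA 5 the median slope of the list was 0.60 and without the other libraries between -0.93 and -0.31. The direction of the slope thus rested on SCFA 5. Between the classes, the median fold change ran from -1.38 to -0.44 with any 1 library left out. The part of cortical genes in the other results was not tested, and with the log2 level of Slc17a7 held in the fit 18 of 19 sheath genes and 12 of 18 presynaptic genes passed, where 7.07% of all genes were called positive and 4.9% negative. The median slope of the cortical list in that fit was -0.14, against -0.57 without Slc17a7 held. Slc17a7 is itself a cortical neuron gene, so a smaller slope was built into that fit and cannot measure the part of cortical genes.

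**Figure D4:**
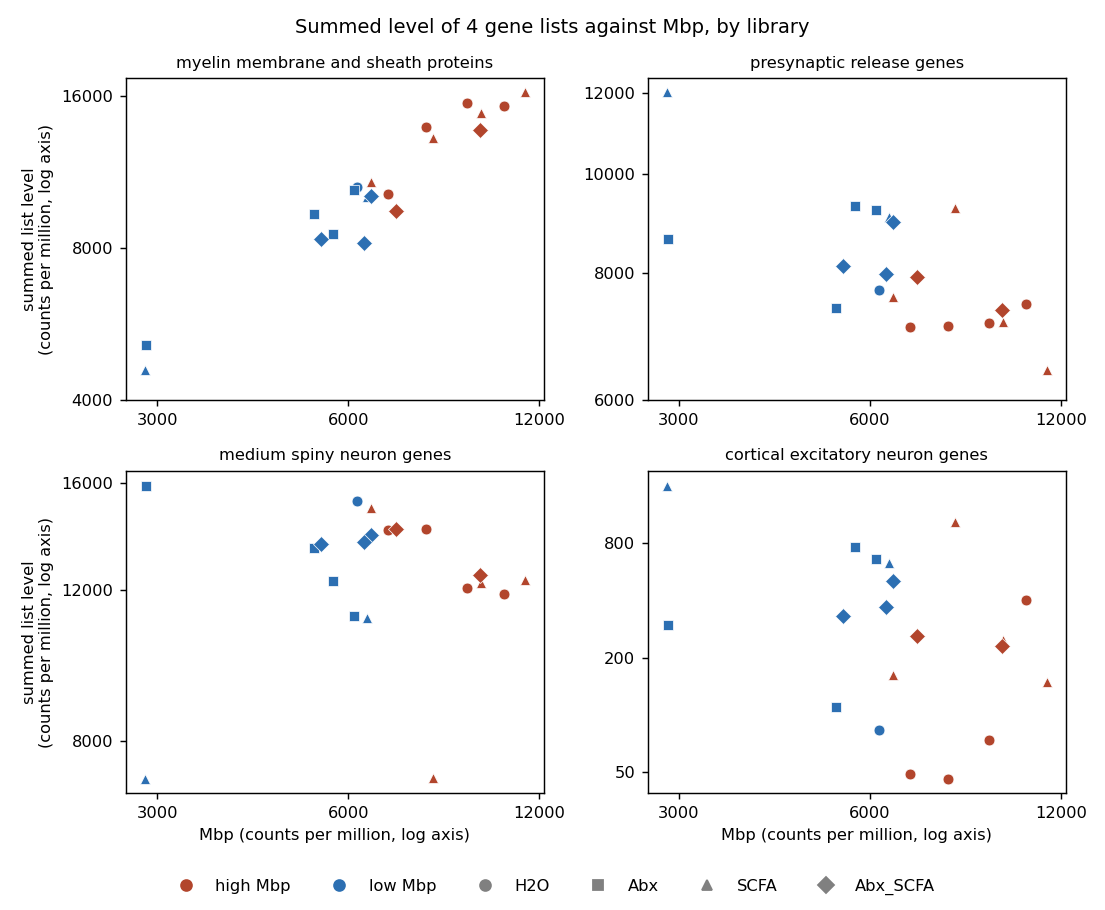
Summed level of the members of 4 gene lists against Mbp, both in CPM on log axes, with 1 symbol per library coloured by Mbp class and shaped by drinking group. The sheath list climbs with Mbp, with 16233 CPM in SCFA 1 and 4591 CPM in SCFA 5, the presynaptic list declines with its highest point, 12026 CPM, in SCFA 5, and SCFA 2 and SCFA 5 stand low for medium spiny neuron genes and high for cortical genes.

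Genes of other glia had shallower slopes. Of 14 microglia genes, 13 had positive fold changes with a median of 0.23, and 4 had a positive slope that passed, with a median of 0.20. Over all genes, 6.59% were called positive. Csf1r, the growth factor receptor on which microglia depend, ran from 146 to 208.6 CPM with a median of 179 in the high libraries, against 137 to 166 CPM with a median of 149 in the low libraries. The classes overlapped, with 8 high libraries above every low one, and the slope was 0.24 ± 0.07 (edgeR adjusted p = 0.0249), a call lost without H2O 2, SCFA 1, SCFA 5 or Abx_SCFA 1. Tyrobp, C1qa and P2ry12 were the other 3, with slopes of 0.42, 0.30 and 0.27, while Aif1 had 0.10 ± 0.10 and Tmem119 had -0.09 ± 0.16. Without SCFA 5 none of the 14 passed, and without SCFA 1 or Abx_SCFA 1 2 did. Without Abx 3 there were 7. Positive calls over all genes numbered 847 with all 20 libraries and 537 without SCFA 5. They numbered 619 without SCFA 1, 744 without Abx_SCFA 1 and 799 without Abx 3.

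Of 16 astrocyte genes, 2 had a positive slope that passed, with a median of 0.13, where 6.59% of all genes were called positive. Within groups, the high libraries had the higher mean in 13 of 16 genes in SCFA, 8 of 16 in Abx_SCFA and 14 of 16 in H2O. Gfap, the filament of fibrous and reactive astrocytes, ran from 519 to 862 CPM with a median of 689 in the high libraries, against 367 to 653 CPM with a median of 520 in the low libraries, and its slope was 0.33 ± 0.10 (edgeR adjusted p = 0.0385). The water channel Aqp4 had 0.21 ± 0.06 (adjusted p = 0.0369). Leaving out H2O 2, SCFA 1, SCFA 3, SCFA 5 or Abx_SCFA 2 took away both calls. Of 14 endothelial and pericyte genes none passed, and the median slope was 0.06.

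Lists of other cells or neighbouring tissue held few calls. In the fit on Mbp, 0 of 8 genes of neighbouring basal forebrain nuclei, 0 of 8 ependymal genes, 0 of 4 choroid plexus genes and 0 of 6 blood cell genes passed. Their median slopes were -0.07, -0.27, 0.01 and -0.10 in that order. The ependymal median was thus close in size to that of the presynaptic list, with 7 of 8 negative fold changes between the classes, a median of -0.27 and no call. Of 11 interneuron genes, Kcnc1, a fast potassium channel, had a negative slope that passed (-0.32 ± 0.06, edgeR adjusted p = 0.000459), and of 9 meningeal genes Dcn, a matrix proteoglycan, did (-0.27 ± 0.08, adjusted p = 0.0417). The call of Kcnc1 was lost without SCFA 5, and that of Dcn when any of 9 of the 20 libraries was left out. Ttr, a defining gene of choroid plexus, had at most 5 counts in any library.

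Among genes lower in the high libraries, the smallest p between the classes were those of Fosb, an activity-regulated transcription factor, and Homer1, a scaffold of the postsynaptic density, and neither passed. Fosb ran from 36.6 to 53.3 CPM with a median of 49.0 in the high libraries, against 47.7 to 78.5 CPM with a median of 60.4 in the low libraries, with a fold change of -0.49 ± 0.10 on the log2 scale (edgeR adjusted p = 0.121). Its slope on Mbp passed (-0.40 ± 0.11, adjusted p = 0.0205), but not without SCFA 1 or without SCFA 5. Homer1 had a slope of -0.30 ± 0.06 (adjusted p = 0.00109). Cyth1, an exchange factor of ARF GTPases, had a positive fold change that did not pass, with a fold change of 0.34 ± 0.06 (adjusted p = 0.121) and a slope of 0.32 ± 0.05 (adjusted p = 0.000429).

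Within the drinking groups, the high libraries had the higher mean in 19 of 19 sheath genes in SCFA, 18 of 19 in Abx_SCFA and 18 of 19 in H2O, beside 52.9%, 48.7% and 56.1% of all genes tested in the same groups. Mobp averaged 1412 CPM in the 4 high and 764 CPM in the 2 low SCFA libraries, 1262 CPM in the 2 high and 929 CPM in the 3 low Abx_SCFA libraries, and 1389 CPM in the 4 high H2O libraries, against 967 CPM in the single low one. Microglia genes were higher in 13, 11 and 14 of 14 in the same groups. Presynaptic genes were higher in 0 of 18 in SCFA, 1 of 18 in Abx_SCFA and 5 of 18 in H2O. Cortical genes were higher in 0 of 11 in SCFA, 1 of 11 in Abx_SCFA and 11 of 11 in H2O. The count in H2O rested on H2O 5, with a summed cortical level of 400 CPM. H2O 1, H2O 3 and H2O 4 had 48.9, 45.9 and 73.8 CPM, below the 83.2 CPM of H2O 2, the single low library. Medium spiny neuron genes were higher in 20 of 20 in SCFA, 5 of 20 in Abx_SCFA and 3 of 20 in H2O. A test of whether the difference between classes itself differed between rats with and without fatty acids called 0 genes (0%; smallest edgeR adjusted p = 0.664), with 446 genes at an unadjusted p below 0.05. All Abx libraries are low, so in rats without fatty acids this test set 4 H2O libraries against H2O 2 alone. It therefore cannot decide whether the difference is the same in both sets of rats.

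The pattern did not rest on the lowest libraries for the sheath genes. Without Abx 3 and SCFA 5, 18 of 19 sheath genes and 10 of 14 lineage regulators had a positive slope that passed, with medians of 0.86 and 0.70, where 2.99% of all genes were called positive and 0.365% negative. None of the presynaptic genes passed there, and their median slope was -0.22. Without H2O 4 and Abx_SCFA 5, whose Cend1 counts resembled SCFA, 1264 genes were called, and 18 of 19 sheath genes and 10 of 18 presynaptic genes passed, where 6.01% of all genes were called positive and 3.85% negative. The sheath list had 18 calls with any 1 library left out, with a median slope between 0.87 and 0.94.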

How the data were processed

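Polyadenylated RNA was extracted with an RNeasy kit and made into libraries with a SMARTer kit, per the labels' protocols. The authors deposited 1 table of read counts per gene symbol and library, which the values show to be whole numbers without normalization. The submitters' processing notes name the aligner STAR 2.4.0, the read check FastQC 0.11.6, the package limma and, as genome build, Rnor_6.0. The tool and annotation behind the counts, and whether strand was used, are not stated in the sources at hand. The classes, gene lists and the fit on Mbp were chosen with earlier results of these data known.

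From the 17296 symbols, 12845 genes other than Mbp passed edgeR's filter on low counts (minimum count 10, minimum total count 15). Levels are CPM of the column total. Differences came from edgeR 4.0.16 in R 4.3.3, with TMM scaling, the robust quasi-likelihood test, a model of drinking group plus Mbp class (or log2 Mbp CPM) with 15 residual degrees of freedom, and Benjamini-Hochberg adjustment over all genes tested with a threshold of 0.05. The interaction compared the class difference between rats with and without fatty acids. Every adjusted p in the text is from edgeR, and the scripts were tested on simulated data. Cage mates share a cage that the labels do not name, so that p-values measure only the spread between these libraries. No pair of the 190 library pairs agreed within sampling noise.

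Alternatives were other scalings and filters, DESeq2 1.42.0, limma 3.58.1 (voom), other covariates and splits, and libraries left out. Named genes were 20 fixed markers, the 8 with the smallest p in each direction where fewer than 5 were called, and up to 3 per list, with the others named for their role or after their values were seen. Total counts of 17525358 to 25731636 put the limit that a count of 0 allows (3 counts) at 0.117 to 0.171 CPM, which covers counting error only. Genes with identical counts in all libraries, such as Ugt1a8 and Ugt1a9, and genes that overlap on opposite strands cannot be told apart. The list symbols Gjc3, Plin3, Zfp488, Zfp536, Anln, Trf, Sept4, Lhfpl3, Xylt1, Cntnap2, Emx1, Pifo, Dnah6, Spag17, Hba-a2 and Hbb-bs were not analysed here under these names. Trf is another symbol of transferrin, which was analysed as Tf. Neu4, Npy, Prlr, Ttr, Clic6, Otx2 and Col1a2 did not pass the filter. A few genes, among them the one called between the classes, are not reported here by name.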

Additional observations from a re-analysis of the deposited data

Results flagged for a closer look

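In 40 comparisons of the highest and lowest library with the rest of its class of 10, 8 held a library that lay apart by Dixon's criterion. For independent groups of normally distributed values, chance gives about 1 in 20. These comparisons took the CPM of 20 markers in the same libraries and are not independent, so the count of 8 cannot be set against that rate. SCFA 2 accounts for 3 of the 8, SCFA 5 for 4 and Abx_SCFA 5 for 1. Among the high libraries, SCFA 2 had 700.3 CPM of Slc17a7, 579 CPM of Penk, the enkephalin precursor of medium spiny neurons, and 994 CPM of Ppp1r1b. Among the low libraries, SCFA 5 had 1045 CPM of Slc17a7, 168 CPM of Drd1, 947 CPM of Ppp1r1b and 85.9 CPM of Nefh. Both libraries were thus high in the cortical gene and low in medium spiny neuron genes. Abx_SCFA 5, a low library, had 184 CPM of Cldn5, a tight junction protein of brain endothelium. No cause of these values was tested.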

How the results depend on the processing

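Between the classes, 1 gene was called, and the alternatives moved this count both ways. It was 0 with column totals only, with Mbp left out of totals, with no filter on low counts, with the rat number series or Slc17a7 as covariate, in only the fatty acid rats, in only the rats without fatty acids, without the 2 libraries lowest in Mbp, and with 9 against 9 libraries. With column totals, 2334 genes had an unadjusted p below 0.05, against 2370 as reported. It was 516 with DESeq2, 499 (426 higher, 73 lower) without the treatment covariate and 1403 with Mbp as a continuous covariate. With 1 library left out it ran from 0 to 28, the highest without Abx_SCFA 3. The count per doubling of Mbp was 1403, against 296 in only the rats without fatty acids and 432 without the 2 lowest libraries. With 1 library left out it ran from 652 without SCFA 5 to 1664 without Abx 4, and the other scalings, covariates, tests and subsets gave 1264 to 1872. Slopes in only the rats without fatty acids were -0.51 for Drd1, -0.46 for Ppp1r1b and 0.36 for Fezf2, each with the opposite sign to that over all rats. The causes of these changes were not tested. The interaction called 0 genes under every alternative run, and could not be estimated without H2O 2. No paired analysis was possible because the replicate numbers only name libraries in order of listing and pair no animals.

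The classes were cut from a continuous level, the Abx rats are all in the low class, and the single low H2O library carries the water contrast. Depth limits statements on genes near 1 CPM.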
